A study of Mus musculus with 70 samples.

Results

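The 10 genes described here code for chains of receptors for lymphoid cytokines: Il21r, Il2rb, Il2rg, Il4ra, Il15ra, Il10ra, Il10rb, Ifngr1, Ifngr2 and Il17ra. They were taken by name from a table of RNA-sequencing read counts for 52636 mouse genes, and all 10 were found in it. Il21r was chosen by its difference between susceptible and control mice in Ly6C-low monocytes. That contrast is therefore given as a description, with no test, for Il21r and for the other 9 genes.

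These receptors work as pairs of chains, in which a private chain recognises the cytokine and a shared chain carries the signal into the cell. Il2rg codes for the common gamma chain, the partner of the chains for interleukin (IL)-2, IL-4, IL-15 and IL-21. Il2rb codes for a signalling chain used by IL-2 and IL-15, and Il15ra codes for the chain that holds and presents IL-15. Il4ra binds IL-4 and also takes part in the IL-13 receptor, and Il21r binds IL-21, a cytokine made mainly by activated T cells. Il10ra and Il10rb form the IL-10 receptor, which restrains monocytes and macrophages. Ifngr1 and Ifngr2 form the receptor for interferon-gamma, which activates them. These chains signal through Janus kinases and STAT proteins, whereas Il17ra, the common chain of the IL-17 receptors, uses a separate adaptor pathway.

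The cells came from young adult male C57BL/6J mice without any engineered allele. Stressed mice went through chronic social defeat stress (CSDS) for 10 days, in which an aggressive CD-1 mouse attacks the mouse and is then housed beside it, and they were split by a social interaction test into susceptible (SUS) and resilient (RES) mice. Control (CON) mice were not stressed. By the study's methods, Ly6C-high monocytes (labelled Ly6high), Ly6C-low monocytes (Ly6low), B cells and T cells came from blood by sorting, although the labels name brain as the source. SUS and RES mice had the same stress and were named by their own behaviour afterwards. The labels do not say whether the libraries of a group came from separate mice, so the p-values below measure the spread between these libraries. They also do not say whether different cell types came from the same mice, and tests between cell types treat the libraries as separate.

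Of the 70 libraries, 68 were used, with 6 in each group of each cell type except 4 CON libraries of Ly6C-low monocytes, 5 RES libraries of B cells and 5 RES libraries of T cells. Library 52, labelled as B cells, and library 70, labelled as T cells, were left out because their markers went against the labels. Library 52 had Cd79a, a B cell receptor component, at 5.72 CPM, which are counts scaled to a common library size, and Cd3e, a T cell receptor component, at 410.1 CPM. Library 70 had Cd79a at 1403 CPM and Cd3e at 0.142 CPM. In the 68 libraries used, Cd79a ranged from 1157 to 1834 CPM in B cells and Cd3e from 374 to 534.9 CPM in T cells. Ly6c2, the antigen that defines Ly6C-high monocytes, ranged from 245.7 to 880.9 CPM in them and from 0.143 to 2.66 CPM in Ly6C-low monocytes. Genes were assigned 19769835 to 67038231 counts per library. Levels below are CPM after TMM normalization, which adjusts for differences in library composition.

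Il21r and Il4ra are neighbours on chromosome 7. In GRCm38, Il4ra (ENSMUSG00000030748) lies at chr7:125552120-125579474 and Il21r (ENSMUSG00000030745) at chr7:125603429-125633570, both on the plus strand and 23955 bases apart. The sequences before their starts are shown because these were the members past both thresholds in Ly6C-high monocytes of SUS mice. They are from RefSeq on GRCm38.p6, which held 6 of the 10 members, and run 5′ to 3′ on the plus strand. For Il21r the 250 bases before the start are printed (chr7:125603179-125603428), with capitals marking a GC box, GGGCGG, 49 to 44 bases before the start. For Il4ra the first 99 of the 250 bases before its RefSeq start are printed (chr7:125552021-125552119), which end where the first exon begins in GENCODE M21.
Il21r: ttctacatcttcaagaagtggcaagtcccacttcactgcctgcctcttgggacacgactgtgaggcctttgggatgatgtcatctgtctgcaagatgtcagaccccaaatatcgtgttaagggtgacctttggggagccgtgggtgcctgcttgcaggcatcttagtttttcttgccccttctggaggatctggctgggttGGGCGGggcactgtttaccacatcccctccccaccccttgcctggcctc
Il4ra: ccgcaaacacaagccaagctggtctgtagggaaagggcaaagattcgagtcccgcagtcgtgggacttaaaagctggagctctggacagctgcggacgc

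A set of 6 motifs was searched on both strands of the 250 bases before the start, in 7 promoters of the 6 members and in 32851 promoters in all. The STAT motif with a spacing of 3, TTCNNNGAA, was in none of the 7 and in 7.02% of all promoters. With a spacing of 4, TTCNNNNGAA, it was in the Ifngr2 promoter and in 5.85% of all. The AP-1 motif TGANTCA was in the Il15ra promoter and in 6.75% of all, and the PU.1 motif GAGGAAGT was in no member promoter and in 2.44% of all. An octamer, ATGCAAAT, lay 139 to 132 bases before the RefSeq start of Il4ra, past the printed stretch, and was in 1.6% of all promoters. The GC box of Il4ra lay 76 to 71 bases before the same start. By GENCODE M21, whose Il4ra start comes earlier, both lie after the start of the gene. The GC box was in the promoters of Il4ra, Il21r, Ifngr1 and Ifngr2 and in 32.7% of all. The octamer and the GC box were added to the search after the sequences were seen. No match overlapped a match to another of the 6 motifs, and a match describes the letters and not a bound site.

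The other members lie on 7 further chromosomes of GRCm38. Il10rb (ENSMUSG00000022969, chr16:91406164-91425834) and Ifngr2 (ENSMUSG00000022965, chr16:91547072-91565623) are both on the plus strand, with Ifnar1, a type I interferon receptor gene, between them. Il15ra (ENSMUSG00000023206, chr2:11705290-11734317) lies 12097 bases after Il2ra, also on the plus strand. Il17ra (ENSMUSG00000002897, chr6:120463247-120487559) and Ifngr1 (ENSMUSG00000020009, chr10:19591949-19610229) are on the plus strand. Il2rb (ENSMUSG00000068227, chr15:78479256-78495271), Il10ra (ENSMUSG00000032089, chr9:45253837-45269149) and Il2rg (ENSMUSG00000031304, chrX:101264378-101268255) are on the minus strand. Il2rg shares 728 exon bases with Gm20489 on the same strand, which reached at most 0.745 CPM. Il10rb shares 569 exon bases with Gm21970 on the same strand, which was at 0 CPM in every cell type. How reads in shared bases were counted is not stated here, so the levels of Il2rg and Il10rb carry that limit.

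In unstressed mice, the 10 receptors divided the blood cells into lymphoid and myeloid patterns. Il21r, Il4ra and Il2rg were higher in B cells and in T cells than in Ly6C-high monocytes, whereas Il10ra, Il15ra, Il17ra, Ifngr1 and Ifngr2 were higher in Ly6C-high monocytes than in either lymphocyte. Il2rb was high in T cells and in Ly6C-low monocytes and near the bottom of the range in B cells and in Ly6C-high monocytes. A gene was called when it had an adjusted p under 0.05 and a log2 fold change beyond 1 in either direction. Between Ly6C-high monocytes and B cells, 8 of the 10 members were called, against 33.1% of all genes tested. Between Ly6C-high monocytes and T cells 9 of 10 were called (32.8% of all genes), and between B cells and T cells 4 of 10 (20.2%). Il21r has no test in pairs with Ly6C-low monocytes, because those CON libraries took part in its choice. Of the other 9, 6 were called between Ly6C-low monocytes and B cells (30.3% of all genes), 7 between Ly6C-low monocytes and T cells (28.5%), and 2 between the monocyte subsets (11.2%).

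**Figure D1:**
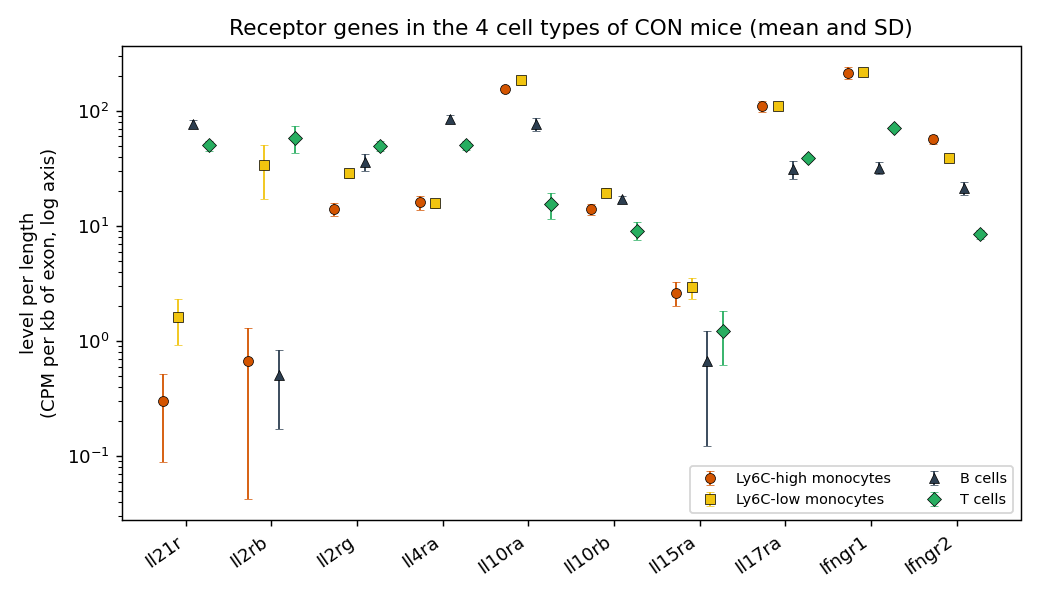
Levels of the 10 receptors in CON libraries of the 4 sorted cell types, in CPM per kilobase of exon on a log axis, with each point a group mean and each bar the SD over 6 libraries (4 for Ly6C-low monocytes). Il21r sits highest in B cells, with a mean of 77.6, and lowest in Ly6C-high monocytes, with a mean of 0.304.

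Among the chains for gamma-chain cytokines, Il2rb had a mean of 250.6 ± 67.0 CPM in T cells (SD, n = 6), 145 ± 71.9 in Ly6C-low monocytes (n = 4), 2.89 ± 2.71 in Ly6C-high monocytes (n = 6) and 2.16 ± 1.42 in B cells (n = 6). T cells and Ly6C-low monocytes did not differ beyond their spread (log2 difference 0.77 higher in T cells, SE 0.63, edgeR adjusted p = 0.388), nor did Ly6C-high monocytes and B cells (0.44, SE 0.63, adjusted p = 0.614). Il2rb was 50.9-fold higher in Ly6C-low than in Ly6C-high monocytes (edgeR adjusted p = 8.09e-06). Between these subsets a list of 8 natural killer (NK) and innate lymphoid cell genes differed in the same direction. Their summed level was 345.3 to 1092 CPM in the CON libraries of Ly6C-low monocytes and 3.46 to 52.7 CPM in those of Ly6C-high monocytes, with Ncr1, a defining NK receptor, at 62.5 to 199.9 CPM and 0 to 8.17 CPM. The list did not follow Il2rb over all cell types. In CON libraries it summed to 187.9 to 389.1 CPM in T cells, where Il2rb was highest, and to 3.66 to 7.86 CPM in B cells. The part of NK and innate lymphoid cells in the Il2rb level was not tested.

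Il2rg, the shared chain, had the order T cells (118.9 ± 12.0 CPM), B cells (86.5 ± 14.8), Ly6C-low monocytes (68.4 ± 6.59) and Ly6C-high monocytes (33.3 ± 4.45). Its difference between the monocyte subsets was 2.08-fold (edgeR adjusted p = 2.78e-07), close to the fold threshold. Without Ly6C-low CON library 24 the count between the subsets was 1 in place of 2. Il4ra was 5.28-fold higher in B cells (511.5 ± 39.5 CPM) and 3.13-fold higher in T cells (301.3 ± 25.1 CPM) than in Ly6C-high monocytes (96.1 ± 12.9 CPM), and the monocyte subsets differed by 0.0071 on the log2 scale (SE 0.10, adjusted p = 0.996). Il15ra was the lowest of the receptors per length in Ly6C-low monocytes after Il21r, at 2.93 CPM per kilobase, and its level in CPM was 3.96-fold higher in Ly6C-high monocytes than in B cells (edgeR adjusted p = 0.000141).

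The receptors for IL-10, IL-17 and interferon-gamma led in monocytes. Per kilobase of exon, Ifngr1 stood at 214.6 in Ly6C-high and 218.6 in Ly6C-low monocytes, the top values of the 10 members in those cells, and at 32.2 in B cells. Il10ra followed with 154.8 and 185.2 CPM per kilobase in the monocytes and 15.5 in T cells, and in CPM it was 10.1-fold higher in Ly6C-high monocytes than in T cells (edgeR adjusted p = 2.86e-17). The second chain of the interferon-gamma receptor, Ifngr2, differed between lymphocytes in the opposite direction to the first. Ifngr2 was 2.52-fold higher in B cells than in T cells (adjusted p = 1.39e-11), and Ifngr1 was 2.24-fold higher in T cells than in B cells (adjusted p = 1.42e-11). Il10rb was the most even member, with means of 34.8 to 74.4 CPM over the cell types.

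Il21r ranked B cells, T cells, Ly6C-low monocytes and Ly6C-high monocytes. Its CON level was 257.9 ± 20.2 CPM in B cells and 166.5 ± 17.2 CPM in T cells, and although the libraries of these cells did not overlap, the difference did not pass the test (log2 0.63, SE 0.30, edgeR adjusted p = 0.121). B cells were 253.9-fold and T cells 164.5-fold above Ly6C-high monocytes (edgeR adjusted p = 1.93e-12 and 4.28e-12). Stress moved none of these lymphocyte levels past the test. B cells ranged from 217.8 to 275 CPM in SUS and from 222.1 to 291.5 CPM in RES mice, beside 237.1 to 290.5 CPM in CON mice. T cells ranged from 137.8 to 233.5 CPM in SUS, 142.1 to 192 in RES and 147.4 to 196.3 in CON mice.

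In Ly6C-low monocytes, which patrol the vessel wall, Il21r was low in CON mice and several-fold higher after defeat. The 4 CON libraries read 2.65, 4.27, 7.14 and 7.46 CPM. The 6 SUS libraries had a lowest value of 10.2, a median of 32.2 and a highest value of 41.8 CPM, and the 6 RES libraries had 4.16, 16.5 and 19.0 CPM. No SUS library overlapped the CON libraries, and 5 of 6 RES libraries exceeded the highest of them, the exception being library 28. The fitted log2 fold change was 2.43 in SUS vs. CON mice (SE 0.47, 5.37-fold), 1.35 in RES vs. CON mice (SE 0.45) and 1.07 in SUS vs. RES mice (SE 0.38). These values describe the contrast that singled the gene out, in which 0.0871% of all genes were called. Even the highest of these libraries stayed below every T cell library, the lowest of which was at 137.8 CPM.

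**Figure D2:**
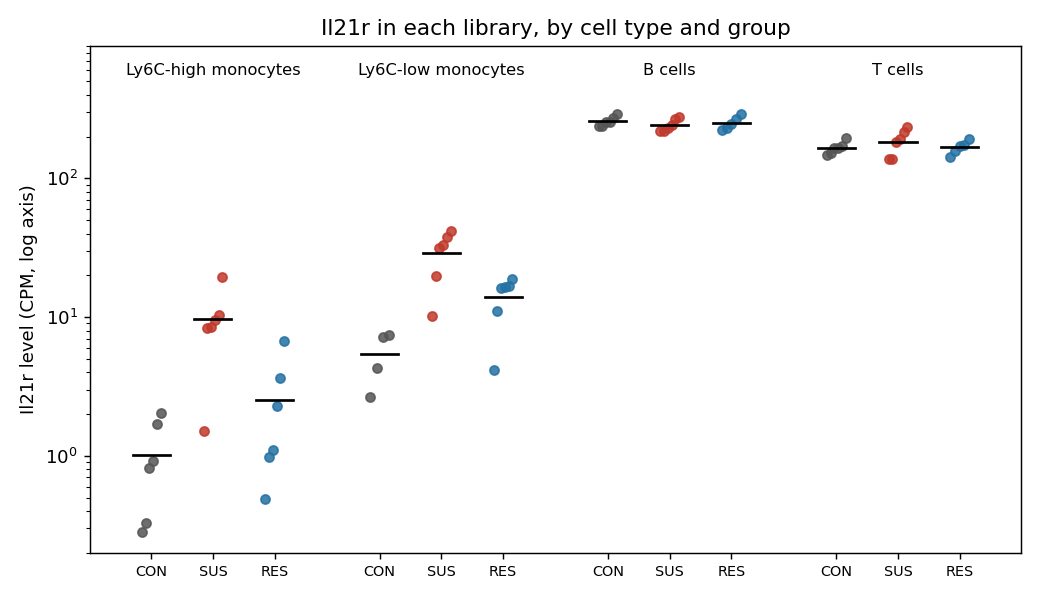
Il21r in every library, in CPM on a log axis, by cell type and stress group, with bars at the group means. Values in Ly6C-low monocytes run from 2.65 to 41.8 CPM and in Ly6C-high monocytes from 0.285 to 19.4 CPM, while B and T cell libraries sit between 137.8 and 291.5 CPM.

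The contrast that chose Il21r did not use Ly6C-high monocytes, the inflammatory subset, and there the gene also differed. The members were named with earlier results of these data known. The labels do not say whether both monocyte subsets came from the same mice, so this is not a separate test. CON libraries ranged from 0.285 to 2.03 CPM with a median of 0.864, SUS libraries from 1.52 to 19.4 with a median of 9.03, and RES libraries from 0.490 to 6.78 with a median of 1.69. Of the 6 SUS libraries, 5 lay above every CON library, and the sixth, library 17, fell within the CON range. Il21r rose 9.43-fold in SUS vs. CON mice (log2 3.24, SE 0.66, edgeR adjusted p = 0.00301). In RES vs. CON mice the log2 difference was 1.33 (SE 0.62, adjusted p = 0.217), with 3 of 6 RES libraries above every CON library. The difference between SUS and RES mice was 1.91 (SE 0.62, unadjusted p = 0.00545, adjusted p = 0.999) and did not pass. The lowest CON library had 11 counts of Il21r and the highest SUS library 636, so the CON level rests on few reads.

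B and T cells carry far more Il21r than monocytes, so their markers were read in the same libraries. In Ly6C-high monocytes the summed level of 7 B cell genes was 5.37 to 19.1 CPM in CON, 5.42 to 10.1 in SUS and 6.06 to 15.1 in RES mice, and that of 8 T cell genes was 0.313 to 6.08 CPM over all 18 libraries. Cd79a was at 0.0873 to 2.67 CPM and Cd3e at 0 to 0.111 CPM. In B cells Il21r stood at 0.150 to 0.205 of the Cd79a level, whereas in Ly6C-high monocytes it stood at 0.208 to 9.33 times Cd79a in CON, 1.42 to 55.9 in SUS and 0.183 to 6.40 in RES mice, which are ranges that overlap. In Ly6C-low monocytes the B cell genes summed to 22.3 to 27.3 CPM in CON, 11.4 to 35.6 in SUS and 15.3 to 21.9 in RES mice, and the T cell genes to 3.67 to 12.7 CPM over all 16 libraries. The ratio of Il21r to Cd79a was 0.238 to 0.538 in the CON and 0.740 to 5.93 in the SUS libraries of Ly6C-low monocytes. In SUS vs. CON Ly6C-high monocytes the median log2 difference was -0.50 for the 3 B cell genes and -0.52 for the 2 T cell genes that could be tested. The part of B and T cells in the Il21r level was not tested.

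Lists for other cell types moved as well. In Ly6C-high monocytes the 5 plasma cell genes summed to 165.7 to 241.7 CPM in CON, 231.6 to 400.5 in SUS and 196.2 to 302.2 in RES mice, of which Xbp1, a stress response factor that many cells express, made up 150.9 to 212.1 CPM in CON and 210.8 to 378.9 CPM in SUS mice, while the defining gene Jchain was at 0 to 1.28 and 0 to 0.855 CPM. The 6 platelet genes summed to 5.70 to 10.1 CPM in CON and 6.15 to 49.5 CPM in SUS mice. Of these, 1 of 6 was called higher in SUS vs. CON mice, beside 3.45% of all genes called. The 7 neutrophil genes summed to 9.69 to 363.1 CPM in CON, 19.9 to 1180 in SUS and 5.98 to 619 in RES mice. Of the neutrophil genes, 5 were tested and 0 called in SUS vs. CON mice, beside the same 3.45%, with a median log2 difference of 1.205. In Ly6C-low monocytes the 6 dendritic cell genes summed to 81.0 to 160.8 CPM in CON, 35.6 to 77.5 in SUS and 44.1 to 107 in RES mice. The sums of SUS and CON libraries did not overlap, and 1 of 6 genes was called lower, beside 0.0871% of all genes called. The part of these cells in the Il21r and Il4ra differences was not tested. In bulk libraries, fewer cells of a type and less RNA per cell cannot be told apart.

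Il4ra, the gene next to Il21r, was the other member that changed in Ly6C-high monocytes. Its lowest, median and highest levels were 80.7, 96.98 and 110.4 CPM in CON, 181.5, 312.3 and 523 CPM in SUS, and 110.8, 232.4 and 390.8 CPM in RES mice. Every SUS and every RES library lay above every CON library, although the lowest RES library, at 110.8 CPM, was close to the highest CON library, at 110.4 CPM. Il4ra rose 3.38-fold in SUS vs. CON mice (log2 1.76, SE 0.28, edgeR adjusted p = 0.000931) and 2.50-fold in RES vs. CON mice (log2 1.32, SE 0.27, edgeR adjusted p = 0.0142). SUS and RES libraries overlapped, with a log2 difference of 0.44 (SE 0.27, adjusted p = 0.999). The 2 comparisons with CON mice share the CON libraries. In SUS mice Il4ra reached a mean of 328.2 CPM in Ly6C-high monocytes, beside 312.2 CPM in T cells and 509 CPM in B cells of SUS mice.

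The same gene was higher to a smaller degree in Ly6C-low monocytes. CON libraries read 87.9, 90.8, 93.2 and 107.1 CPM, SUS libraries ranged from 120.2 to 190.1 CPM and RES libraries from 102 to 168.7 CPM. No SUS library overlapped the CON libraries, with a log2 difference of 0.68 that is given as a description. In RES vs. CON mice the log2 difference was 0.38 (SE 0.13, unadjusted p = 0.00683, edgeR adjusted p = 0.292), with 5 of 6 RES libraries above every CON library. Il4ra overlaps an antisense gene, Gm44876, over 571 exon bases, and because the counting of strand is not stated here, reads of the pair cannot be told apart. Gm44876 reached at most 5.57 CPM.

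**Figure D3:**
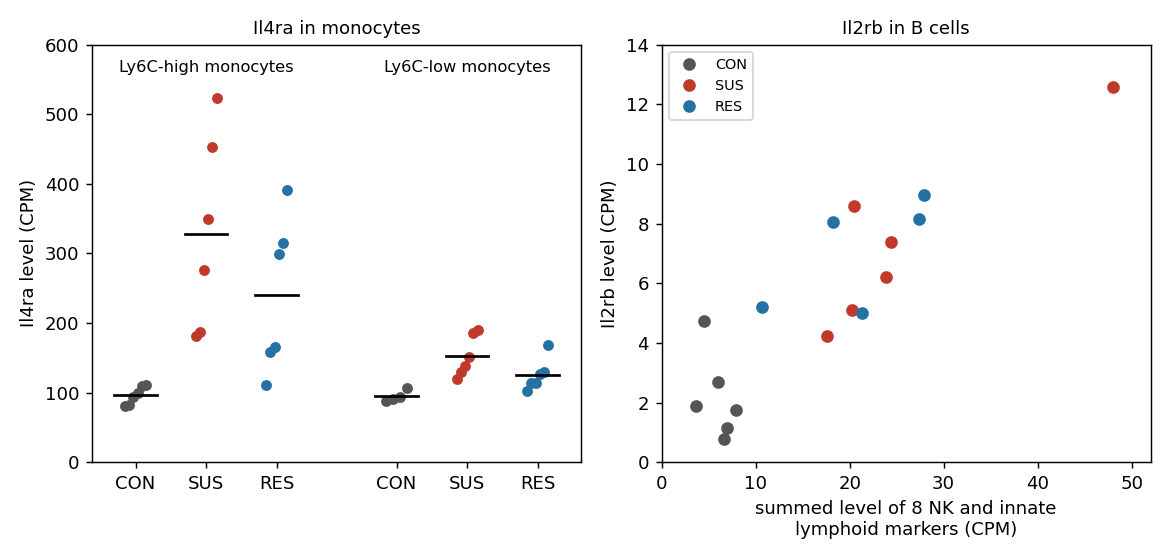
Left, Il4ra in each library of both monocyte subsets, in CPM by stress group with bars at the means. Right, Il2rb in B cell libraries against the summed level of 8 NK genes, both in CPM. All SUS and RES libraries of Ly6C-high monocytes sit above the highest CON library at 110.4 CPM, and every SUS and RES library of B cells sits to the right of the CON libraries, which end at 7.86 CPM.

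In all, 2 of the 10 members were called in Ly6C-high monocytes from SUS relative to CON mice, both higher, against 3.45% of the 16955 genes tested. In RES vs. CON mice 1 was called, against 0.997% of all genes. The median log2 difference of the 10 members in SUS vs. CON mice was 0.05, beside -0.05 for all genes tested, and 5 of 10 had an unadjusted p under 0.05, beside 26.5% of all genes. Of the RES vs. CON differences, 4 of 10 did, beside 21.2% of all genes. In SUS vs. RES mice 0 of 10 were called by edgeR or by DESeq2, beside 0% of all genes by edgeR. By edgeR 4 of 10 had an unadjusted p under 0.05, beside 3.66% of all genes. Those were Il21r, Il2rb, Il2rg and Il10ra, of which Il21r was higher and the other 3 were lower in SUS mice.

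Red cell RNA moved with these groups. Summed over 7 hemoglobin and other red cell genes, it was 345.1 to 1229 CPM in CON, 1103 to 8767 in SUS and 1085 to 4392 in RES libraries of Ly6C-high monocytes. Of these genes, 7 of 7 were called higher in SUS and 2 of 7 in RES vs. CON mice, beside 3.45% and 0.997% of all genes called. With the mean log2 level of that list as a covariate, the log2 difference in SUS vs. CON mice was 3.25 for Il21r (edgeR adjusted p = 0.376) and 1.12 for Il4ra (adjusted p = 0.582), and that of Il4ra in RES vs. CON mice was 0.85 (adjusted p = 0.986). In that fit 1 gene of 16955 was called in SUS and 0 in RES mice, where 585 and 169 were called without the covariate. Over all 6 alternatives the adjusted p ranged from 2.15e-05 to 0.376 for Il21r, from 4.46e-07 to 0.582 for Il4ra in SUS mice and from 0.00097 to 0.986 for Il4ra in RES mice. The part of red cell RNA in these differences was not tested beyond this fit.

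The remaining chains did not pass the test in Ly6C-high monocytes. Among the gamma-chain cytokine receptors, Il2rg ranged from 29.7 to 40.2 CPM in CON and from 20.1 to 32.2 CPM in SUS mice (log2 -0.35, SE 0.17, edgeR adjusted p = 0.18). Il2rb was at 0.0502 to 7.64 CPM in CON and 0 to 1.47 CPM in SUS mice (log2 -2.15, SE 1.06, adjusted p = 0.195), and Il15ra differed by 0.06 (SE 0.29, adjusted p = 0.929). The NK genes that accompany Il2rb summed to 3.46 to 52.7 CPM in CON and 0.206 to 19.2 CPM in SUS libraries. Of the IL-10 receptor chains, Il10rb was at 44.2 to 60.2 CPM in CON and 57.4 to 104 CPM in SUS mice (log2 0.39, SE 0.14, adjusted p = 0.071), and Il10ra differed by -0.22 (SE 0.12, adjusted p = 0.237). Il17ra differed by -0.11 (SE 0.12, adjusted p = 0.628).

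Ifngr1, the ligand-binding chain of the interferon-gamma receptor, differed by a small and similar amount in both monocyte subsets. In Ly6C-high monocytes it ranged from 514.6 to 680 CPM in CON, 621 to 1023 in SUS and 613.3 to 895.5 in RES mice (SUS vs. CON log2 0.32, SE 0.12, edgeR adjusted p = 0.0978). In Ly6C-low monocytes the CON libraries read 596.6, 607.3, 620.4 and 665.6 CPM, and those of SUS and RES mice ranged from 700.8 to 861.6 and from 728.2 to 938.6 CPM. Neither stressed group overlapped the CON libraries there. The difference was 0.33 in SUS vs. CON mice, as a description, and 0.36 in RES vs. CON mice (SE 0.08, unadjusted p = 0.000107, adjusted p = 0.0872), below the fold threshold in any case. Ifngr2 is the signalling partner of Ifngr1. The Ifngr2 differences in Ly6C-low monocytes were -0.14 and -0.08 in the same order, and in Ly6C-high monocytes 0.05 and 0.20 (RES vs. CON adjusted p = 0.255).

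For the other members of Ly6C-low monocytes, SUS vs. CON differences ran from -0.11 for Il2rg to 0.43 for Il15ra, with Il15ra at 10.6 to 15.7 CPM in CON and 12.3 to 23.7 CPM in SUS mice. Of the 9 members tested in RES vs. CON mice, 0 were called by edgeR or DESeq2, beside 0.0154% of all genes by edgeR. By edgeR 2, Ifngr1 and Il4ra, had an unadjusted p under 0.05, beside 9.67% of all genes. In SUS vs. RES mice 0 of 9 were called by either tool, beside 0% of all genes by edgeR. By edgeR 2, Il4ra (0.30, SE 0.12) and Il10ra (-0.18, SE 0.08), had an unadjusted p under 0.05, beside 3.79% of all genes, with an adjusted p of 1.

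**Figure D4:**
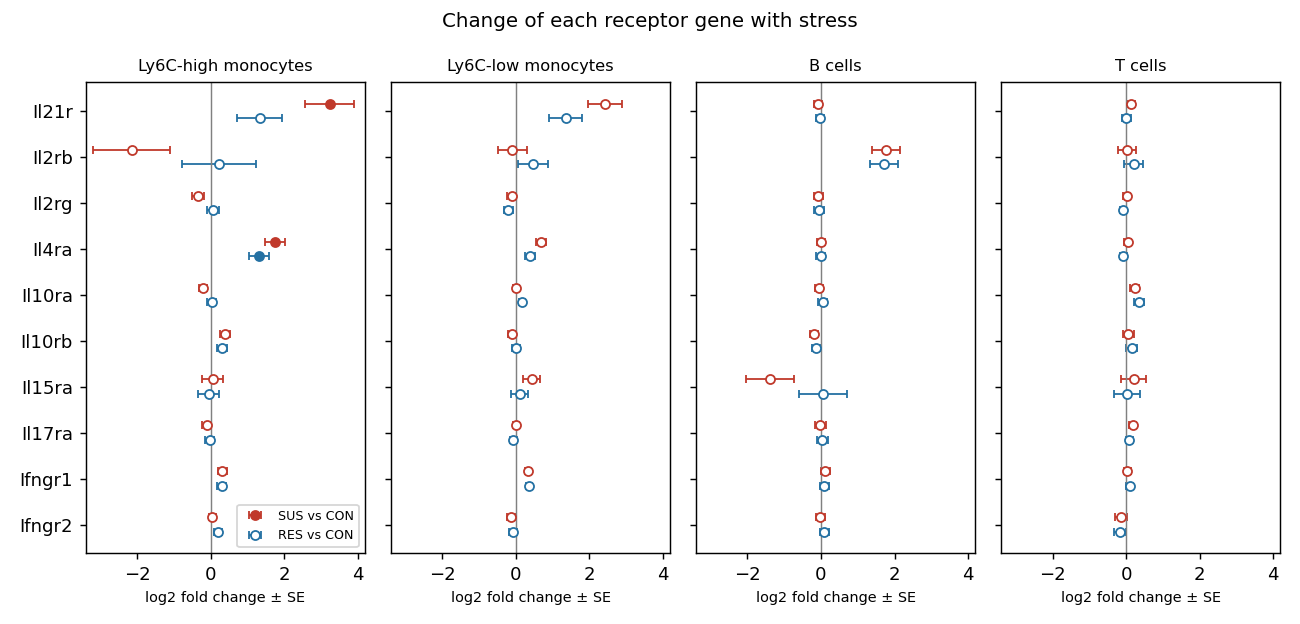
Log2 fold change of the 10 receptors in each cell type for SUS vs. CON and RES vs. CON mice, with bars for the standard error of the fit. Filled points passed both thresholds, namely Il21r at 3.24 and Il4ra at 1.76 and 1.32 in Ly6C-high monocytes, and hollow points did not or were not tested.

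In B cells, Il2rb came nearest to the test of the 10 members. Il2rb was at a trace level in these libraries, with a lowest, median and highest value of 0.761, 1.82 and 4.73 CPM in CON and 4.22, 6.80 and 12.6 CPM in SUS mice, and the 5 RES libraries read 5.02, 5.20, 8.05, 8.15 and 8.95 CPM. Of the SUS libraries 5 of 6, and of the RES libraries 5 of 5, lay above every CON library. By edgeR the log2 difference was 1.77 in SUS vs. CON mice (SE 0.38, unadjusted p = 8.21e-05, adjusted p = 0.202) and 1.72 in RES vs. CON mice (SE 0.39, unadjusted p = 0.000168, adjusted p = 0.742), so neither was called. DESeq2 called both (adjusted p = 0.00525 and 0.0334), and without CON library 50, which had the highest CON level, edgeR called the first (log2 2.16, adjusted p = 0.038). Over the 7 alternatives other than leaving out libraries, the adjusted p ranged from 0.00525 to 1.00 in SUS and from 0.0334 to 1.00 in RES mice. This gene was followed across the alternatives after its levels were seen.

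The NK genes moved with Il2rb in the B cell libraries. They summed to 3.66 to 7.86 CPM in CON, 17.6 to 48.0 in SUS and 10.7 to 27.9 in RES mice. Their median log2 difference from CON mice was 2.34 in SUS and 2.02 in RES mice. In both contrasts 0 of 8 were called by edgeR, beside 0.00568% and 0% of all genes. At an unadjusted p under 0.05 were 7 and 6 of 8, beside 3.42% and 3.18% of all genes. Ncr1 was at 0.0745 to 1.34 CPM in CON and 1.20 to 4.78 CPM in SUS mice. T cell genes in the same libraries summed to 2.50 to 6.23 CPM in CON and 4.39 to 10.7 CPM in SUS mice. Red cell genes summed to 1324 to 7717 CPM in CON and 3035 to 12620 CPM in SUS mice. With the red cell list as a covariate the Il2rb differences were 1.79 in SUS and 1.74 in RES vs. CON mice, neither of which passed the test. The part of NK cells in the Il2rb difference was not tested. For scale, the 18 libraries of Ly6C-high monocytes held at most 11.3 CPM of Il2rb and the 17 of T cells at least 142.2 CPM.

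Among the other B cell values, Il15ra was at 0.894 to 7.71 CPM in CON, 0.231 to 2.41 in SUS and 0.437 to 7.36 in RES mice (SUS vs. CON log2 -1.39, SE 0.64, unadjusted p = 0.0404, adjusted p = 0.999), with overlapping libraries. The other 8 members differed by -0.19 to 0.12 in SUS vs. CON mice. By edgeR, 0 of 10 members were called in B cells when SUS and RES mice were each set against CON mice and then against each other, with 2, 1 and 1 at an unadjusted p under 0.05, beside 3.42%, 3.18% and 1.36% of all genes at that p. Called were 0.00568%, 0% and 0% of all genes. DESeq2 called 1, 1 and 0 members. In T cells 0 of 10 were called by edgeR or DESeq2 in the same 3 comparisons, with 0, 1 and 0 at an unadjusted p under 0.05, beside 4.8%, 4.11% and 2.39% of all genes at that p. Called by edgeR were 0.0265%, 0% and 0% of all genes. The member at that p was Il10ra in RES vs. CON mice, at 59.0 to 74.3 CPM in RES and 41.0 to 76.4 CPM in CON mice (log2 0.35, SE 0.13, adjusted p = 0.989).

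A change in one cell type and not in another was tested as a difference of differences, with an adjusted p under 0.05 as the only threshold. For SUS vs. CON mice, 4 of 10 members differed between Ly6C-high monocytes and B cells, beside 6.18% of all genes. These were Il21r (3.36, SE 0.57, edgeR adjusted p = 0.000541), Il4ra (1.80, SE 0.26, adjusted p = 4.73e-05), Il2rb (-3.86, SE 0.87, adjusted p = 0.00513) and Il10rb (0.62, SE 0.17, adjusted p = 0.0212). Between Ly6C-high monocytes and T cells 2 of 10 differed, beside 3.22% of all genes, namely Il21r (3.13, SE 0.57, edgeR adjusted p = 0.00185) and Il4ra (1.74, SE 0.26, adjusted p = 0.000188). Thus the rise of Il21r and Il4ra was larger on the log2 scale in Ly6C-high monocytes than in either lymphocyte. In CPM, the CON and SUS means of Il21r were 1.01 and 9.62 in Ly6C-high monocytes, and 166.5 and 183.3 in T cells. The differences between cell types were not refitted with the red cell covariate. For RES vs. CON mice only Il4ra passed, in Ly6C-high monocytes against B cells (1.35, SE 0.27, adjusted p = 0.00978) and against T cells (1.41, SE 0.27, adjusted p = 0.0111), 1 of 10 members each, beside 1.65% and 0.713% of all genes. Both calls were lost, with 0 of 10 members each, when only the 2 cell types compared were in the fit.

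Elsewhere the difference of differences called no member by edgeR. The shares of all genes given here are those past the adjusted p, and the share at an unadjusted p was not computed. In SUS vs. CON mice, B cells against T cells gave 0 of 10 members, beside 0.0949% of all genes. Of the 10, 2 had an unadjusted p under 0.05. In RES vs. CON mice, the subsets of monocytes against each other gave 0 of 9, beside 0.099% of all genes. Of the 9, 1 had an unadjusted p under 0.05 (Il4ra, 0.93, SE 0.28, edgeR adjusted p = 0.18). Ly6C-low monocytes gave 0 of 9 against B cells (0.0701% of all genes) and 0 of 9 against T cells (0.00412%), and B cells against T cells gave 0 of 10 (0.0206%), in each case with 0 at an unadjusted p under 0.05. For Il21r the differences with Ly6C-low monocytes are not tested, and in RES vs. CON mice they were 1.42 against B cells and 1.37 against T cells.

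The rest of the pathway was read from lists of genes. In Ly6C-high monocytes of SUS mice, 20 of 28 partner and related receptor chains were tested. Relative to CON mice 2 rose and 1 fell, beside 3.45% of all genes called. The 20 chains had a median log2 difference of -0.12. At an unadjusted p under 0.05 were 7 of the 20, beside 26.5% of all genes. Il18rap, the accessory chain of the IL-18 receptor, was at 2.27 to 8.78 CPM in CON and 5.59 to 26.1 CPM in SUS mice (log2 1.56, SE 0.41, edgeR adjusted p = 0.0144). Ifnlr1, the interferon-lambda receptor chain, had 0 counts in all 6 CON libraries, which allows up to 0.0753 to 0.0873 CPM for 3 counts per library, and 0.117 to 1.77 CPM in SUS mice (adjusted p = 0.00821). Il12rb2, a signalling chain of the IL-12 receptor, fell in SUS mice, with 2.32 to 8.40 CPM beside 10.6 to 18.7 CPM in CON mice (log2 -1.59, SE 0.45, adjusted p = 0.0228). Ifnlr1 also rose in RES vs. CON mice, where it was at 0 to 1.84 CPM (adjusted p = 0.024), and no other listed chain was called there. The share of all genes called in RES vs. CON mice was 0.997%.

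Of the 11 Janus kinases and STATs, all tested, 1 rose and 0 fell in SUS vs. CON mice, beside 3.45% of all genes called. At an unadjusted p under 0.05 were 7 of the 11, beside 26.5% of all genes, and the median log2 difference was 0.25. The 1 that rose was Jak3, the kinase that binds the common gamma chain. It was at 7.38 to 27.7 CPM in CON, 28.3 to 80.7 in SUS and 21.9 to 50.8 in RES mice. SUS and CON libraries of Jak3 did not overlap (log2 1.45, SE 0.30, edgeR adjusted p = 0.00354), and it was also called in RES vs. CON mice (log2 1.12, SE 0.30, adjusted p = 0.0333). Of 12 feedback inhibitors, 10 were tested and 2 rose in SUS vs. CON mice, beside 3.45% of all genes called. Socs3, which blocks Janus kinases, was at 23.1 to 45.4 CPM in CON, 106.6 to 494 in SUS and 63.6 to 234 in RES mice (SUS vs. CON log2 2.90, SE 0.41, adjusted p = 0.000638, and RES vs. CON 2.02, SE 0.40, adjusted p = 0.014). Ptpn1, a phosphatase of these kinases, was at 352.4 to 533.8 CPM in CON and 555 to 1143 CPM in SUS mice (log2 1.05, SE 0.17, adjusted p = 0.00109). With the red cell covariate at most 1 of the listed genes could remain called in SUS and 0 in RES vs. CON mice, since 1 and 0 genes of all tested were called there.

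The genes that interferon-gamma induces were mostly not called. Of 15, all tested, the median log2 difference in Ly6C-high monocytes from SUS relative to CON mice was 0.04. In that contrast 0 rose and 1 fell, beside 3.45% of all genes called. The 1 was Cxcl10, a chemokine, at 8.31 to 10.8 CPM in CON and 0.166 to 5.32 CPM in SUS mice (log2 -2.08, SE 0.56, edgeR adjusted p = 0.0165). Between RES and CON mice 0 of 15 were called by edgeR, beside 0.997% of all genes. At an unadjusted p under 0.05 were 2 of 15, beside 21.2% of all genes. Of the 12 cytokine ligands of these receptors, 1 was high enough to be tested in Ly6C-high monocytes and it was not called. Il21, the ligand of Il21r, was at 0 counts in 62 of the 68 libraries, Il10 in 50, Ifng in 39 and Il4 in 36. In Ly6C-low monocytes from SUS relative to CON mice 0 genes of these lists were called by edgeR, beside 0.0871% of all genes. At an unadjusted p under 0.05 were 5 of 23 partner chains, 2 of 11 kinases and STATs, 0 of 3 ligands, 5 of 12 feedback inhibitors and 2 of 14 interferon-gamma response genes, beside 9.51% of all genes. Between RES and CON mice 0 were called, beside 0.0154% of all genes. There 2, 3, 0, 2 and 0 of them, in that order, had an unadjusted p under 0.05, beside 9.67% of all genes.

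In lymphocytes of SUS mice the listed genes called were few. Socs3 rose in B cells, with 18.1 to 45.0 CPM in SUS beside 5.81 to 12.9 CPM in CON mice (log2 1.59, SE 0.26, edgeR adjusted p = 0.0483), and was the 1 gene called of all 17620 tested in that contrast. In T cells Socs3 rose too, with 134.4 to 340.7 CPM in SUS beside 61.3 to 84.5 CPM in CON mice (log2 1.72, SE 0.22, adjusted p = 0.00338). Il2ra, the alpha chain that completes the IL-2 receptor with Il2rb and Il2rg, was at 12.6 to 20.1 CPM in CON and 20.5 to 59 CPM in SUS T cells, with no overlap (log2 1.24, SE 0.23, adjusted p = 0.0312). Red cell genes summed to 891.7 to 2862 CPM in CON and 1648 to 4548 CPM in SUS T cells. With the red cell list as a covariate, 0 of 17620 genes were called in B cells and 0 of 18860 in T cells in SUS vs. CON mice, so the Socs3 and Il2ra calls in lymphocytes were lost. Without the covariate, Il2ra in T cells differed by 0.97 in RES vs. CON mice (SE 0.24, edgeR adjusted p = 0.595). The T cell levels of Il2rb and Il2rg differed from CON mice by 0.03 (SE 0.24) and 0.015 (SE 0.09) on the log2 scale in SUS mice.

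The genes around the pair on chromosome 7 were read as well. Gtf3c1, which begins 7384 bases after Il21r on the other strand, differed by 0.36 in Ly6C-high monocytes from SUS relative to CON mice (SE 0.15, edgeR adjusted p = 0.121). Nsmce1, a DNA repair complex subunit 60524 bases before Il4ra on the other strand, was at 3.42 to 11.4 CPM in CON and 9.27 to 34.5 CPM in SUS mice (log2 1.51, SE 0.35, adjusted p = 0.00634) and was also called in RES vs. CON mice (log2 1.19, SE 0.34, adjusted p = 0.0456). Thus Nsmce1, Il4ra and Il21r were called in SUS vs. CON mice along this stretch and Gtf3c1 was not, beside 3.45% of all genes called. With the red cell covariate, 1 gene of 16955 was called in SUS and 0 in RES vs. CON mice. In that fit Il21r and Il4ra were not called, and the Nsmce1 call in RES mice was lost.

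As a description, the genes whose pattern was most like that of Il21r were ranked by Pearson's r on log2 levels. Over the 12 means of cell type and group, among 12745 protein-coding genes, they were Tubg1 (r = 0.99), Ripor2, Nol7, Tex30 and Prpf4 (r = 0.977), which all stand apart between lymphocytes and monocytes. Il2rg had r = 0.84, Il4ra 0.80, and Il17ra -0.92, Ifngr1 -0.87 and Ifngr2 -0.82. Over the 16 libraries of Ly6C-low monocytes, among 11646 genes, the closest were Cdkn2d (r = 0.964), Bin2 (0.905), Tgm2 (0.901), Arhgef11 (0.89) and Cd14 (0.879). Il4ra came 38th with r = 0.807, Ifngr1 226th with 0.667 and Il15ra 289th with 0.644, while r was 0.04 for Il2rb, -0.13 for Il2rg and -0.25 for Il10ra. These libraries share the stress groups that set Il21r apart, so the ranks carry no test.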

How the data were processed

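RNA from sorted blood cells was sequenced as stranded total RNA (SMARTer Stranded Total RNA-Seq Pico). The authors aligned reads to mm10 with HISAT2 and deposited raw counts per gene from htseq-count, and the strand option is not given in the sources used here. Of 52636 Ensembl IDs, 52489 matched GENCODE M21 symbols. Libraries 52 and 70 were left out, and sequences came from RefSeq.

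Counts were tested with edgeR 4.0.16 (R 4.3.3) by quasi-likelihood, with filterByExpr, TMM and robust fitting. Each cell type was fitted with its 3 groups, CON cell types together, and differences of differences over all 12 groups. Benjamini-Hochberg adjustment ran over all genes tested. Genes were called at adjusted p under 0.05 and absolute log2 above 1. DESeq2 1.42.0 was an alternative. All tests were two-sided and were checked on simulated data. Levels are TMM CPM, and CPM per kilobase of exon where genes are compared. Likeness used log2(CPM + 0.5).

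The genes named were the 10 members, every listed pathway gene past both thresholds, the nearest protein-coding neighbours, and the 5 genes most like Il21r. Members and lists were chosen with earlier results of these data known. Totals of 19769835 to 67038231 counts per library set the precision.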

Additional observations from a re-analysis of the deposited data

Results flagged for a closer look

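Of the 120 sets of 4 to 6 libraries formed by gene, cell type and group, 3 held a library far from the others, where chance flags about 1 in 20. In Ly6C-high monocytes of SUS mice, library 5 had Il10rb at 104 CPM and the others 57.4 to 71.5 CPM. In B cells of CON mice, library 44 had Il15ra at 7.71 CPM and the others 0.894 to 3.00 CPM. In T cells of RES mice, library 55 had Il15ra at 9.16 CPM and the others 4.10 to 5.08 CPM.

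Stress differences that were unlike between cell types by a test of the difference itself were, for SUS vs. CON mice and Ly6C-high monocytes against B cells, 3.36 for Il21r, -3.86 for Il2rb, 1.80 for Il4ra and 0.62 for Il10rb on the log2 scale. Against T cells they were 3.13 for Il21r and 1.74 for Il4ra. For RES vs. CON mice they were 1.35 for Il4ra against B cells and 1.41 against T cells.

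The left-out libraries carried members above the level in CON libraries of the labelled cell type, in CPM scaled over all 70 libraries. Library 52, labelled as B cells, had Il2rb at 442.3, Il17ra at 390 and Ifngr1 at 233.6 CPM, beside CON maxima of 4.71, 329.2 and 108.1 CPM. Library 70, labelled as T cells, had Il21r at 259.6, Il4ra at 553.8, Il10ra at 317.2, Il10rb at 66.4 and Ifngr2 at 92.4 CPM, beside CON maxima of 191.2, 330.9, 74.4, 41.0 and 34.9 CPM.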

How the results depend on the processing

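With the red cell covariate, 0 members were called in Ly6C-high monocytes from SUS relative to CON mice and 0 of RES vs. CON mice, in place of 2 and 1. With adjusted p alone, 4 members were called between the monocyte subsets and 8 between B and T cells. DESeq2 called 1 member in B cells of SUS vs. CON mice and 1 of RES vs. CON mice. With libraries 52 and 70 kept, differences of differences called 2 members for SUS vs. CON mice (Ly6C-high monocytes against B cells) and, for RES vs. CON mice, 2 against B cells and 2 between B and T cells. With 2 cell types in the fit, the RES vs. CON differences of Ly6C-high monocytes called 0 members against B cells and 0 against T cells. Leaving out 1 library gave 0 to 1 members in B cells of SUS vs. CON mice, the 1 without CON library 50, and 1 to 2 between the monocyte subsets, the 1 without Ly6C-low CON library 24. The cause was not tested, beyond the fewer samples and the looser threshold that these settings set by construction.

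Il21r changed sign where it was near 0. It was 0.042 in B cells of SUS vs. RES mice with libraries 52 and 70 kept, and -0.080 in T cells of RES vs. CON mice with the red cell covariate. Leaving out 1 library gave -0.091 to 0.0035 in B cells of RES vs. CON mice, -0.10 to 0.0032 in those of SUS vs. RES mice, and -0.051 to 0.056 in T cells of RES vs. CON mice. In Ly6C-low monocytes from SUS relative to CON mice it was 2.37 to 2.43 over 6 alternatives and 2.19 to 2.62 with 1 library left out. Ranked by Spearman's rho, 0 of the 5 genes most like Il21r over the group means and 3 of 5 over the Ly6C-low libraries were shared with the ranking by Pearson's r. No paired analysis was possible because library numbers are not shared between groups and the labels name no mouse. The CON libraries of Ly6C-high monocytes held 11 to 70 counts of Il21r, which limits the precision of its fold there.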

Other observations

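Neighbours of other members were read in Ly6C-high monocytes as well. Of the pair beside Il17ra, Tmem121b was lower in SUS vs. CON mice (log2 -1.60, SE 0.44, edgeR adjusted p = 0.0201), beside 3.45% of all genes called. With the red cell covariate 1 gene of 16955 was called in that contrast. The median of Tmem121b was 4.57 CPM in Ly6C-high and 66.8 CPM in Ly6C-low monocytes, where its log2 difference was -0.21 (SE 0.35). Kdm5a, a histone demethylase, differed by -0.59 in Ly6C-high monocytes (SE 0.18, edgeR adjusted p = 0.0348), which is under the fold threshold. The type I interferon receptor genes that stand beside Il10rb and Ifngr2 on chromosome 16 did not pass the test, with Ifnar1 at -0.23 (SE 0.11, adjusted p = 0.174) and Ifnar2 at 0.10 (SE 0.15, adjusted p = 0.725).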
